A study of Homo sapiens with 8 samples.

Results

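The genes described here are 44 protein genes of the core spliceosome and of the small nuclear ribonucleoproteins (snRNPs), chosen by name, out of 13266 genes with a splicing event or an expression value in the series. The cells were U2OS, a human osteosarcoma line. They received 20 nM of an siRNA for 48 h, directed either at EGFP, the control, or at CHERP, the oligonucleotide named CHERP#2. CHERP is a nuclear protein that interacts with U2 snRNP proteins. Whole-cell RNA and cytoplasmic RNA were sequenced in 2 biological replicates per siRNA, which gave 8 libraries. As only one CHERP siRNA was sequenced, effects of this oligonucleotide on other RNAs cannot be told apart from those of the loss of CHERP, and the sources do not say whether both fractions came from the same cultures.

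The spliceosome removes introns in steps. U1 snRNP binds the 5′ splice site, U2AF and SF1 mark the 3′ end of the intron, and U2 snRNP pairs with the branch point. The U4/U6.U5 tri-snRNP then joins, the helicases unwind U4 from U6, and the Prp19 complex and the step factors assist both catalytic reactions. Each snRNP except U6 carries a ring of Sm proteins on its snRNA, whereas U6 carries a ring of Sm-like (LSM) proteins. Several transcripts of splicing factors are known to contain exons whose inclusion brings a premature stop codon and decay of the mRNA.

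Splicing was read from counts of the authors, who listed for every event how many reads of a library fell on an inclusion form and on a skipping form. The 5 types of event are the skipped exon (SE), the pair of mutually exclusive exons (MXE), the alternative 5′ splice site (A5SS), the alternative 3′ splice site (A3SS) and the retained intron (RI). An inclusion level runs from 0 to 1 and gives the part of the transcripts in the inclusion form, with the reads divided by the length over which they could fall. Gene abundance was taken from the same counts, as the sum over the SE, A5SS and A3SS events of a gene of reads per base of that length, scaled between libraries. It can be compared between siRNAs within a fraction, but not between genes or fractions, since it depends on how many events a gene has. All differences are CHERP siRNA minus EGFP siRNA, and library values are given in the order of the tables, first and second.

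The whole-cell libraries held 29409956 to 35664568 reads on events and the cytoplasmic ones 5370756 to 6580099, where a read on several events counts at each. Of 8 osteosarcoma and mesenchymal markers, 3 could be measured in each fraction, and VIM had the most reads of them. The 1 measured of 8 epithelial and blood markers, KRT8, was lower (log2 -0.53 and -0.50). Of the mesenchymal ones, VIM and ALPL were higher in the cytoplasm (0.23 and 2.47), ALPL on a mean of 22 reads, and FN1 did not pass (-0.05). In whole cells 0 of the 3 passed, with CDH11 at -1.13, VIM at 0.23 and FN1 at 0.31.

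CHERP itself was measured first. In whole cells, its abundance was 0.548 and 0.337 in the EGFP siRNA libraries and 0.0124 and 0.0620 in the CHERP siRNA libraries. In the cytoplasm, it was 0.390 and 0.275 against 0.0372 and 0.05. The CHERP siRNA libraries were thus the low ones in both fractions, with log2 differences of -3.45 (SE 0.57, adjusted p = 0.00139) and -2.67 (SE 0.38, adjusted p = 4.05e-05). The fit depends on the constant added before the logarithm, and the whole-cell value lay between -3.89 and -1.98 with other constants. The lowest library in each fraction had 3 reads on CHERP, and the cytoplasmic value rests on a mean of 14.8 reads, under the minimum of 20 set for the other genes.

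Within the 44 genes, 7 distinct splicing events passed the test in at least one fraction, in SNRNP70, U2AF1, SNRPN, PRPF38A, TXNL4A and SNRPA1. The splice sites of the 6 with the smallest adjusted p, at most 1 a gene, are shown first, since these are the places where the transcripts of the splicing machinery differed. The positions are those of hg19, and the letters were read from GRCh37, the same assembly. Among the 226 distinct skipped exons of these genes, 99.1% were preceded by AG and followed by GT there. A 3′ splice site is shown with 20 intronic and 3 exonic bases and a 5′ splice site with 3 exonic and 6 intronic bases, and the capitals mark the AG or GT at the end of the intron.

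SNRNP70 exon, chr19:49605371-49606844, plus strand, 3′ splice site: tgttcttattgtcactgcAGcca
SNRNP70 exon, 5′ splice site: tcgGTaaat
SNRPN exon, chr15:25212176-25212299, plus strand, 3′ splice site: ctggaagttctatatttcAGgta
SNRPN exon, 5′ splice site: aaaGTgagt
SNRPA1 exon, chr15:101826419-101826498, minus strand, 3′ splice site: tgtgtgtggtgtcgctgtAGgag
SNRPA1 exon, 5′ splice site: aacGTaaga
TXNL4A exon, chr18:77737598-77737701, minus strand, 3′ splice site: tttttttaatctccttttAGgtt
TXNL4A exon, 5′ splice site: cagGTacgt
PRPF38A exon, chr1:52871352-52871511, plus strand, 5′ splice site of the long form: caaGTgagt
PRPF38A exon, 5′ splice site of the short form, which ends at 52871385: aagGTttgt

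The U2AF1 exons are shown whole, since they replace each other in the transcript and code for the same stretch of the protein in alternative versions. Both are on the minus strand of chromosome 21 and are 67 bases long. They differ at 23 of the 67 positions, which are given in capitals here, and are 65.7% identical.

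U2AF1 exon at chr21:44521476-44521542: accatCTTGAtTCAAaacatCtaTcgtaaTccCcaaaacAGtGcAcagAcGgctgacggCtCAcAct
U2AF1 exon at chr21:44520563-44520629: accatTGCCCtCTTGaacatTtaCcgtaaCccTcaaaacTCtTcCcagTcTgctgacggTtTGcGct
U2AF1 3′ splice site before the exon at 44521476: ttatttttttttccccgcAGacc
U2AF1 3′ splice site before the exon at 44520563: tgttgcgttttgtatttcAGacc

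U2AF1 binds the AG at the 3′ splice site. Reads within one or the other of these exons, or joining it to the common neighbours, were compared as an MXE event. The level given is the share of the exon at 44521476. In whole cells, this share was 0.333 and 0.317 in the EGFP siRNA libraries and 0.222 and 0.237 in the CHERP siRNA libraries (adjusted p = 3.50e-05). The cytoplasmic value was 0.282 and 0.270 against 0.171 and 0.173 (adjusted p = 0.00475). The share of this exon fell with the CHERP siRNA in both fractions, by 0.0950 and 0.104, and the libraries did not overlap. The whole-cell call was lost without the first CHERP siRNA library (adjusted p = 0.104), and the cytoplasmic one without the first EGFP siRNA library (0.0960) or either CHERP siRNA library (0.223 and 0.0577). The exon at 44521476 is exon 3 of the coding transcript U2AF1-202, and the exon at 44520563 is exon 3 of the coding transcript U2AF1-201.

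A second U2AF1 event that passed is the exon at 44520563 listed as a skipped exon between the exon at 44521476 and the common downstream exon. Its level was 0.454 and 0.469 with the EGFP siRNA and 0.585 and 0.576 with the CHERP siRNA in whole cells, a difference of 0.119 (adjusted p = 0.0134). In cytoplasmic RNA, it was 0.610 and 0.604 against 0.748 and 0.801 (adjusted p = 0.202). This level does not measure transcripts with both exons, since its inclusion reads also hold those within the exon at 44520563 and on its downstream junction, which transcripts without the exon at 44521476 give too. Subtraction between events that share reads left 25 and 19 reads with the EGFP siRNA and 15 and 26 with the CHERP siRNA that join both exons in whole cells, out of 377, 544, 429 and 487 inclusion reads. In the cytoplasm, 8 and 14 against 10 and 8 were left. The reads that join both exons overlapped between the siRNAs in each fraction, before scaling, and were not tested. The event thus shares most of its reads with the MXE event and is no separate measurement. The whole-cell call was lost with any one library left out (adjusted p between 0.0517 and 0.407).

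The abundance of U2AF1 as a whole did not pass the test in either fraction, with log2 differences of -0.22 (SE 0.11) and -0.12 (SE 0.06).

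SNRNP70 codes for the U1 snRNP protein that binds the first stem-loop of U1 snRNA. Its event is an exon of 1474 bases with a GC content of 60.9%, annotated in the transcript SNRNP70-202, exon 8 of 11, a target of nonsense-mediated decay whose coding sequence ends 23 bases into this exon. In whole cells, inclusion reads numbered 184 and 197 with the EGFP siRNA and 319 and 283 with the CHERP siRNA, and skipping reads 343 and 568 against 333 and 238. The inclusion level rose from 0.0456 and 0.0299 to 0.0786 and 0.0957, without overlap, and the difference of 0.0494 had the smallest adjusted p of the 44 genes' events (3.24e-09). In the cytoplasm, the level was 0.00856 and 0.00635 against 0.00733 and 0.00678 (adjusted p = 0.909). Shorter forms of the exon, ending at 49605430 and 49605442, were listed as separate events and did not pass in either fraction. Their levels differed by 0.0302 and 0.0336 in whole cells. Reads within the 1474-base exon were counted as inclusion whether they came from the exon or from an unspliced intron around it, and these were not separated here.

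A test of the difference between fractions, the interaction of siRNA and fraction, gave an unadjusted p of 1.65e-05 for this SNRNP70 exon, which did not pass after adjustment over all SE events (adjusted p = 0.394). It passed when the first EGFP siRNA library of whole cells was left out (adjusted p = 0.0150). Of 146 events of the 44 genes that were listed in both fractions, 0 passed the interaction test in the quasi-binomial model and 6 had an unadjusted p under 0.05. Over all 33604 events in this test, 0.0327% passed. Each fraction was counted with its own read length. For the SNRNP70 exon, skipping reads could fall over 144 bases in whole cells and 73 in the cytoplasm. The part of this in differences between fractions was not tested.

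SNRPN codes for an Sm protein close to SNRPB, and its transcript starts in an imprinted region on chromosome 15. The event is an exon of 124 bases in the 5′ UTR of the transcript SNRPN-207, which 10 other annotated transcripts skip. In whole cells, the inclusion level was 0.215 and 0.186 with the EGFP siRNA and 0.0988 and 0.0962 with the CHERP siRNA (adjusted p = 0.00108). In the cytoplasm, it was 0.266 and 0.228 against 0.131 and 0.104 (adjusted p = 0.0158). Inclusion fell by 0.103 and 0.129, and all CHERP siRNA libraries lay under all EGFP siRNA libraries in each fraction. Before scaling, inclusion reads were 109 and 123 against 103 and 84 in whole cells, and skipping reads were 214 and 290 against 505 and 424. A longer form of the exon, ending at 25212387, was listed as a separate event. Its level differed by -0.0440 in whole cells and -0.0722 in the cytoplasm and did not pass in either. The whole-cell call was lost without the first or the second CHERP siRNA library (adjusted p = 0.0831 and 0.0659). The cytoplasmic call was lost without either EGFP siRNA library (adjusted p = 0.782 and 0.105) or the second CHERP siRNA library (0.212).

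PRPF38A codes for a protein of the B complex, the stage at which the tri-snRNP has joined. The competing 5′ splice sites of its exon 2 lie 126 bases apart, a multiple of 3. The inclusion level of the long form was 0.121 and 0.157 with the EGFP siRNA and 0.506 and 0.670 with the CHERP siRNA in whole cells, a rise of 0.449 (adjusted p = 0.00123). The short form had 62 and 63 reads against 13 and 5, while the long form had 16 and 22 against 25 and 19. Reads within the 126 bases count towards the long form whichever exon follows. The call was lost without the first or the second CHERP siRNA library (adjusted p = 0.0920 and 0.222). The short form is that of the transcript PRPF38A-202, for which no coding sequence is defined, whereas the long exon belongs to the coding transcript PRPF38A-201. No transcript of the annotation joins the long form directly to the exon at 52878186 that this event uses, and the event was not listed in the cytoplasm.

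TXNL4A codes for a small U5 snRNP protein, and its event is a coding exon of 104 bases. The event that passed has the exon at 77748240 before it. In the cytoplasm, its inclusion level rose from 0.791 and 0.755 to 0.891 and 0.879 (adjusted p = 0.00906). Whole cells gave high levels with either siRNA, 0.928 and 0.960 against 0.975 and 0.964 (adjusted p = 0.785). The difference there was 0.0259, in the same direction. The difference between the fractions did not pass the interaction test (adjusted p = 0.955), so the rise is not shown to be confined to the cytoplasm. The cytoplasmic call was lost without either EGFP siRNA library (adjusted p = 0.0537 and 0.720) or the first CHERP siRNA library (0.162). A second event of the same exon, with the exon at 77746602 before it, did not pass in either fraction. Its level differed by -0.015 in the cytoplasm and 0.0037 in whole cells, so the rise holds for the first event and not for every use of the exon. The exon is in the coding transcript TXNL4A-201, and the annotation also has a coding transcript that joins its neighbours, TXNL4A-208.

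SNRPA1 codes for a U2 snRNP protein that works with SNRPB2, and its event is exon 6 of the coding transcript SNRPA1-201. This exon of 80 bases was included at 0.942 and 0.914 with the EGFP siRNA and at 0.860 and 0.854 with the CHERP siRNA in whole cells (adjusted p = 0.0293). The fall was 0.0710. Skipping reads were 41 and 70 against 73 and 77, and inclusion reads were 1042 and 1156 against 697 and 702. The call was lost without the first EGFP siRNA library (adjusted p = 0.314) and without either CHERP siRNA library (0.440 and 0.633). The exon's length is not a multiple of 3, and the transcripts that skip it are 1 target of nonsense-mediated decay and 2 without a defined coding sequence. The event was not listed in the cytoplasm.

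**Figure D1:**
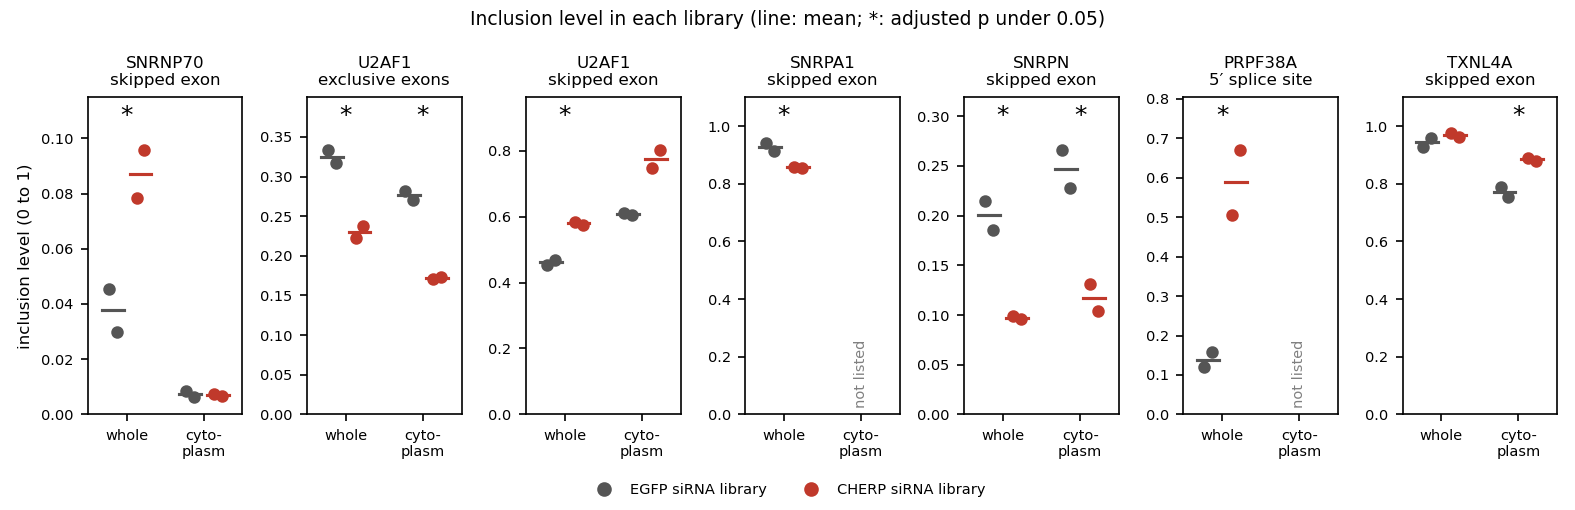
Inclusion level (0 to 1, each panel with its own axis from 0) of the 7 events of the spliceosome genes that passed the test in at least one fraction, with each library as a point and the mean as a line. For U2AF1 exclusive exons the level is the share of the exon at 44521476. The libraries of the 2 siRNAs do not overlap in any panel except for SNRNP70 in the cytoplasm, where the highest of the 4 is 0.00856. Lack of overlap is common with 2 libraries a group, and 135 of all 397 whole-cell and 54 of all 199 cytoplasmic events of these genes had it.

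These events are few beside those measured. In whole cells, 397 events in 43 of the 44 genes were tested and 6 passed (1.51%), in 5 genes, 3 with a higher and 3 with a lower inclusion level. Over all genes, 1.12% of 89379 events passed. By type, 4 of 280 SE events passed where 0.888% of all SE events did, 1 of 70 MXE events (1.60%), 1 of 12 A5SS events (1.16%), 0 of 20 A3SS events (1.14%) and 0 of 15 RI events (3.26%). The quasi-binomial test gave 2 A3SS and 1 RI event of these genes an unadjusted p under 0.05. In the cytoplasm, 199 events in 38 genes were tested and 3 passed (1.51%), against 0.413% of 43559 events over all genes. They were 2 of 142 SE events (0.254% of all) and 1 of 21 MXE events (0.863%). In this fraction 0 of 9 A5SS events (0.617%), 0 of 20 A3SS events (0.372%) and 0 of 7 RI events (2.12%) passed, with 1, 1 and 0 of these at an unadjusted p under 0.05.

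The counts of passing events rest on few libraries. Without the first or the second CHERP siRNA library, 1 and 2 whole-cell events passed. In the cytoplasm, 0 passed in the quasi-binomial test without the first EGFP siRNA library (9 at an unadjusted p under 0.05), 1 without the second, 2 without the first CHERP siRNA library and 1 without the second. Of the 9 calls in both fractions, that of the SNRNP70 exon was the one that passed with any library left out. All 9 differences kept their sign in these fits. When log2 odds were fitted with limma instead, 0 events of these genes passed in either fraction, with 32 and 12 at an unadjusted p under 0.05. That fit also called 0 events over all genes in each fraction, where the quasi-binomial test called 999 and 180. Its lack of calls is thus general and not particular to these genes.

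Across all events of these genes, the median absolute difference in inclusion level was 0.00771 in whole cells and 0.0133 in the cytoplasm. In whole cells, 34 events differed by at least 0.1, of which 23 averaged fewer than 20 reads. The cytoplasm had 19 such events, 12 of them below that depth. Differences of the 15 retained introns in whole cells ran from -0.0822 in SNRPA1 to 0.0897 in PRPF39, and none passed. The SNRPA1 region, which spans exon 6, had levels of 0.356 and 0.334 against 0.260 and 0.266 (adjusted p = 0.585), and the PRPF39 intron 0.310 and 0.380 against 0.390 and 0.479 (adjusted p = 0.755). The smallest adjusted p was that of an intron of USP39, a tri-snRNP protein, at 0.889 and 0.794 against 0.908 and 0.938 (adjusted p = 0.283).

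**Figure D2:**
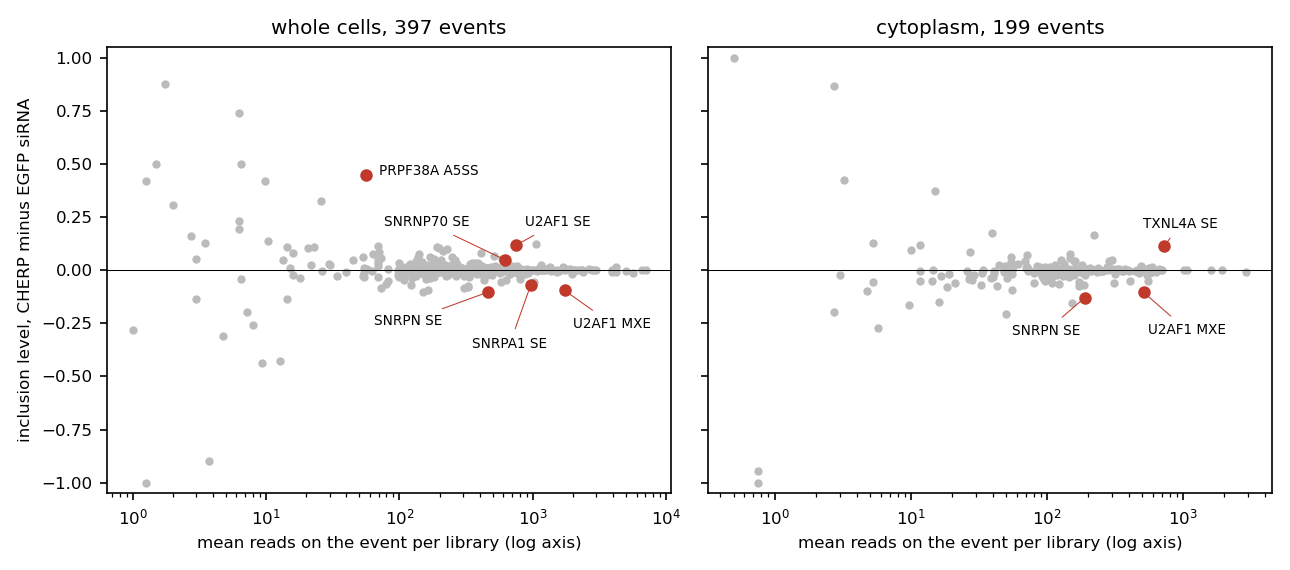
Difference in inclusion level (CHERP siRNA minus EGFP siRNA) against the mean reads on the event per library (log axis) for the 397 whole-cell and 199 cytoplasmic events of the spliceosome genes. Red points passed the test. Of the events that differed by more than 0.25, PRPF38A alone passed, and the others had a mean of at most 25.8 reads.

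The abundance of the genes was compared next, to see how the transcripts of the machinery stood after CHERP depletion. In whole cells, 43 of the 44 genes had an SE, A5SS or A3SS event, and LSM6 had none. Of these, 13 were lower (30.2%), 3 were higher (6.98%) and 27 did not pass, with a median log2 difference of -0.14. Over the 9660 genes tested, 17.7% were lower and 19% higher, with a median of 0.02. In the cytoplasm, 38 genes were tested, and SF3B4, SNRPF, LSM5, SART1, CRNKL1 and CWC22 had no event. Again 13 were lower (34.2%), 3 were higher (7.89%) and 22 did not pass, with a median of -0.09. Over the 7293 genes tested in the cytoplasm, 22.5% were lower and 25.8% higher, with a median of 0.01. These shares for the 44 genes are descriptions and were not tested as a set.

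Of the 37 genes tested in both fractions, 10 were lower in both, 3 were higher in both and 0 passed in opposite directions. The genes lower in both were SNRNP70, SNRPC, SNRPA1, U2AF2, SNRPB, PRPF6, PRPF38A, CDC5L, BCAS2 and CDC40, and those higher in both were SNRPN, LSM7 and PRPF31. The fractions were counted from separate libraries, although whether they came from the same cultures is not stated. In the limma test of the interaction of siRNA and fraction on abundance, 0 of 36 genes of the set passed and 0 had an unadjusted p under 0.05. Over all 6505 genes in that test the share called was 0%. The counts of genes lower or higher in both fractions were not made over all genes. The agreement between fractions is thus not shown to be particular to the spliceosome genes.

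Leaving out a library moved these counts in whole cells. Without the first CHERP siRNA library, 5 genes passed, and without the second 9, all of them among the 16 above. Without the first, CRNKL1, BCAS2, SNRPB, SNRPA1, PRPF38A, CWC22, SLU7 and CDC40 were among those lost (adjusted p between 0.0813 and 0.358). Without the second, SNRNP70, BCAS2, SNRPB, SNRPA1, PRPF38A and CWC22 were (adjusted p between 0.0794 and 0.214). CDC5L, SNRPC, SNRPN and PRPF31 passed in whole cells with any library left out. In the cytoplasm, 12 to 16 passed with one library left out, and BCAS2 and PRPF38A were lost without the first EGFP siRNA library (adjusted p = 0.109 and 0.0769) or the first CHERP siRNA library (0.0833 and 0.0525), PRPF38A also without the second (0.0564). Without a trend in the variance prior, 8 genes passed in whole cells and 10 in the cytoplasm. Scaling by the total in place of median ratios lowered the median of all cytoplasmic genes to -0.10 and turned the split over all genes from 1884 higher and 1639 lower to 1411 higher and 2099 lower. With that scaling, 18 of the 44 genes were lower and 3 higher in the cytoplasm, and 15 lower and 2 higher in whole cells, where LSM7 and U2AF2 no longer passed (adjusted p = 0.0713 and 0.0524). Events that passed the splicing test enter the abundance of their gene, and without them the counts stayed at 13 lower and 3 higher in both fractions.

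**Figure D3:**
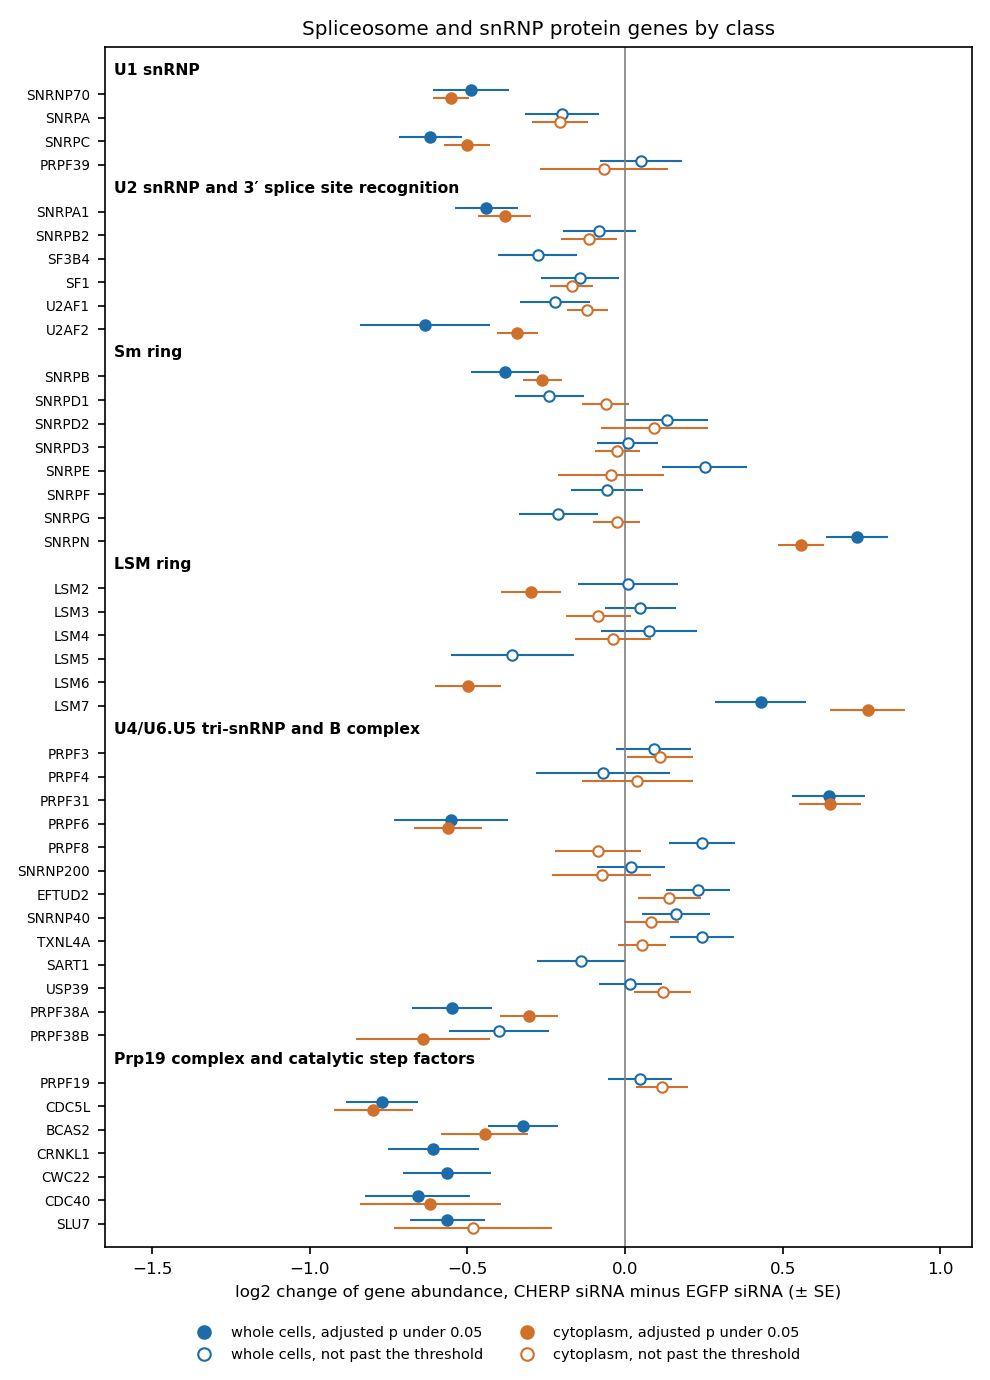
log2 difference in gene abundance (CHERP siRNA minus EGFP siRNA, ± SE) for the 44 genes by class, in whole cells (blue) and in the cytoplasm (orange). Filled points have an adjusted p under 0.05. The Prp19 complex and step factors lie to the left except PRPF19, and SNRPN, LSM7 and PRPF31 are the filled points on the right.

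Among the classes of the 44 genes, the Prp19 complex and catalytic step factors had the largest share of lower genes. Of them, 6 of 7 were lower in whole cells and 3 of 5 in the cytoplasm, with medians of -0.56 and -0.48. The class does not hold every protein of these stages. Outside the 44 genes, CTNNBL1 and PLRG1 of the Prp19 complex differed in direction. CTNNBL1 was higher in both fractions (log2 0.45 and 0.63), and PLRG1 was at -0.28 in both and passed in the cytoplasm alone. CDC5L, a core protein of the Prp19 complex, was the lowest of the 44 genes. Its abundance was 10.9 and 12.1 with the EGFP siRNA and 6.69 and 6.79 with the CHERP siRNA in whole cells, a log2 difference of -0.77 (SE 0.11, adjusted p = 0.000752). The cytoplasmic value was 2.28 and 2.55 against 1.30 and 1.47 (log2 -0.80, SE 0.13, adjusted p = 0.000334). All CHERP siRNA libraries lay well under the EGFP siRNA libraries.

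CDC40 acts at the second catalytic step. It stood at 3.59 and 4.80 against 2.48 and 2.79 in whole cells (log2 -0.66, SE 0.17, adjusted p = 0.0124). In cytoplasmic RNA, it stood at 0.535 and 0.585 against 0.309 and 0.422 (log2 -0.62, SE 0.22, adjusted p = 0.0393), a call lost without the first CHERP siRNA library (-0.39, adjusted p = 0.237) or either EGFP siRNA library (adjusted p = 0.0697 and 0.141). CRNKL1 is a scaffold protein that accompanies the Prp19 complex, and it had events in whole cells alone. Its abundance was 3.06 and 3.27 against 1.98 and 2.18 (log2 -0.61, SE 0.14, adjusted p = 0.00928). CWC22, which links the spliceosome to the loading of the exon junction complex, was at 3.50 and 3.97 against 2.56 and 2.48 in whole cells (log2 -0.56, SE 0.14, adjusted p = 0.0113). None of these sets of libraries overlapped, which is no separate support, since the genes were chosen by the test and each group had 2 libraries.

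SLU7, which acts in the choice of the 3′ splice site at the second step, was lower in whole cells (log2 -0.56, adjusted p = 0.00518), with a cytoplasmic value of -0.48 that did not pass (adjusted p = 0.131) at a mean of 48.8 reads. BCAS2, a further core protein of the complex, was lower in both fractions (log2 -0.32 and -0.45, adjusted p = 0.0446 and 0.0198). PRPF19, the ubiquitin ligase that gives the complex its name, did not pass, at 19.5 and 18.2 against 19.6 and 19.3 in whole cells (log2 0.05, SE 0.10, adjusted p = 0.738).

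Among the U1 snRNP genes, SNRNP70 and SNRPC were lower in both fractions. SNRPC, which helps U1 snRNP bind the 5′ splice site, was at 33.3 and 35.7 against 22.5 and 22.4 in whole cells (log2 -0.62, SE 0.10, adjusted p = 0.00114). In the cytoplasm, it was at 9.96 and 10.3 against 7.09 and 7.18 (log2 -0.50, SE 0.07, adjusted p = 0.000171). The annotation names 18 pseudogenes of SNRPC, so reads of near-identical copies make its level less certain.

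SNRNP70 was at 21.5 and 25.9 against 17.6 and 16 in whole cells (log2 -0.49, SE 0.12, adjusted p = 0.0108). The cytoplasmic value was at 32.7 and 33.2 against 22.7 and 22.2 (log2 -0.55, SE 0.06, adjusted p = 1.53e-05). The lower abundance of SNRNP70 thus stood beside the higher inclusion of its 1474-base exon in whole cells, and a link between them was not tested. SNRPA and PRPF39 did not pass in either fraction, with log2 values between -0.21 and 0.05.

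In the class of U2 snRNP and 3′ splice site recognition, all measured values were under 0 in both fractions. Most of them did not pass. The class does not hold every U2 snRNP gene, and those outside it differed in direction. SF3A3 was higher in whole cells and in the cytoplasm (log2 0.83 and 0.99), as was SF3B14 (2.35 and 2.37). SF3B2 (-0.41 and -0.52) and SF3B3 (-0.42 and -0.38) were lower in both. U2AF2, which binds the polypyrimidine tract as the partner of U2AF1, was at 4.74 and 2.98 against 2.28 and 2.56 in whole cells (log2 -0.63, SE 0.21, adjusted p = 0.0368). The EGFP siRNA libraries were further from each other than the lower of them was from the CHERP siRNA libraries. The call was lost without the first EGFP siRNA library (log2 -0.31, adjusted p = 0.0838), without the first CHERP siRNA library (-0.54, adjusted p = 0.103) and with SE events alone (-0.85, adjusted p = 0.327). In the cytoplasm, where it had 6 events in place of 3, the libraries lay close together, at 15.2 and 15.4 against 11.9 and 12.2 (log2 -0.34, SE 0.06, adjusted p = 0.00119). SNRPA1 was lower in both fractions as well (log2 -0.44 and -0.38, adjusted p = 0.00709 and 0.00292). SNRPB2, SF1 and U2AF1 did not pass in either fraction, nor did SF3B4 in whole cells.

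The Sm ring held 1 lower and 1 higher gene in each fraction. SNRPB, which codes for the SmB proteins, was lower (log2 -0.38 and -0.26, adjusted p = 0.0207 and 0.00483). SNRPN, the related gene whose exon use changed too, was the highest of the 44 genes in whole cells. It was at 17.3 in both EGFP siRNA libraries and at 29.6 and 28.0 in the CHERP siRNA libraries (log2 0.74, SE 0.10, adjusted p = 0.000461). In cytoplasmic RNA, it was at 12.8 and 11.8 against 19 and 17.3 (log2 0.56, SE 0.07, adjusted p = 9.04e-05). SNRPN overlaps 5 other annotated genes on its strand, so reads of these may count towards it. The other Sm genes, SNRPD1, SNRPD2, SNRPD3, SNRPE, SNRPF and SNRPG, did not pass in the fractions where they were measured, with log2 values between -0.24 and 0.25, and SNRPE and SNRPG have 10 and 20 named pseudogenes.

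In the LSM ring, LSM7 was higher in both fractions. It was at 3.94 and 3.83 against 5.88 and 4.66 in whole cells (log2 0.43, SE 0.14, adjusted p = 0.0427), a call lost without the first CHERP siRNA library (0.27, adjusted p = 0.468). In the cytoplasm, it was at 1.72 and 1.99 against 3.36 and 2.97 (log2 0.77, SE 0.12, adjusted p = 0.000293). LSM2 and LSM6 were lower in the cytoplasm (log2 -0.30 and -0.50, adjusted p = 0.0218 and 0.00235), the call of LSM2 being lost without the second CHERP siRNA library (-0.17, adjusted p = 0.245). LSM2 was at 0.01 in whole cells (adjusted p = 0.971), a value that turns below 0 when scaled by the total (-0.04). LSM3, LSM4 and LSM5 did not pass where they were measured.

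Of the tri-snRNP and B complex genes, 10 of 13 did not pass the test in whole cells and 8 of 12 did not in the cytoplasm. Not passing does not show that they were unchanged, and several of them are among the genes the authors listed, described below. PRPF8, the scaffold of the catalytic core, had values of 0.24 in whole cells and -0.09 in the cytoplasm, and SNRNP200, the helicase that unwinds U4 from U6, had 0.02 and -0.07. PRPF31, a U4 snRNP protein, was higher in both. It was at 4.92 and 5.27 against 7.91 and 8.03 in whole cells (log2 0.64, SE 0.12, adjusted p = 0.00232). The cytoplasmic value was at 2.73 and 3.09 against 4.5 and 4.64 (log2 0.65, SE 0.10, adjusted p = 0.000255).

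PRPF6, which bridges U5 and U4/U6, was lower. It was at 3.98 and 2.86 against 2.14 and 2.47 in whole cells (log2 -0.55, SE 0.18, adjusted p = 0.0375), where the EGFP siRNA libraries were far apart. That call was lost without the first EGFP siRNA library (log2 -0.33, adjusted p = 0.0801) or either CHERP siRNA library (adjusted p = 0.216 and 0.0503). In cytoplasmic RNA, it was at 2.77 and 2.85 against 1.96 and 1.85 (log2 -0.56, SE 0.11, adjusted p = 0.00129). PRPF38A was lower in both fractions (log2 -0.55 and -0.30, adjusted p = 0.00772 and 0.0173).

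PRPF38B carries the same PRPF38 domain and passed in the cytoplasm alone, at 0.726 and 0.571 against 0.373 and 0.450 (log2 -0.64, SE 0.21, adjusted p = 0.0273), on a mean of 44 reads. It was lost without the first EGFP or the first CHERP siRNA library (adjusted p = 0.184 and 0.104). In whole cells, it was at 2.13 and 1.91 against 1.54 and 1.51 (log2 -0.40, adjusted p = 0.0755). The difference between the fractions did not pass the interaction test.

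**Figure D4:**
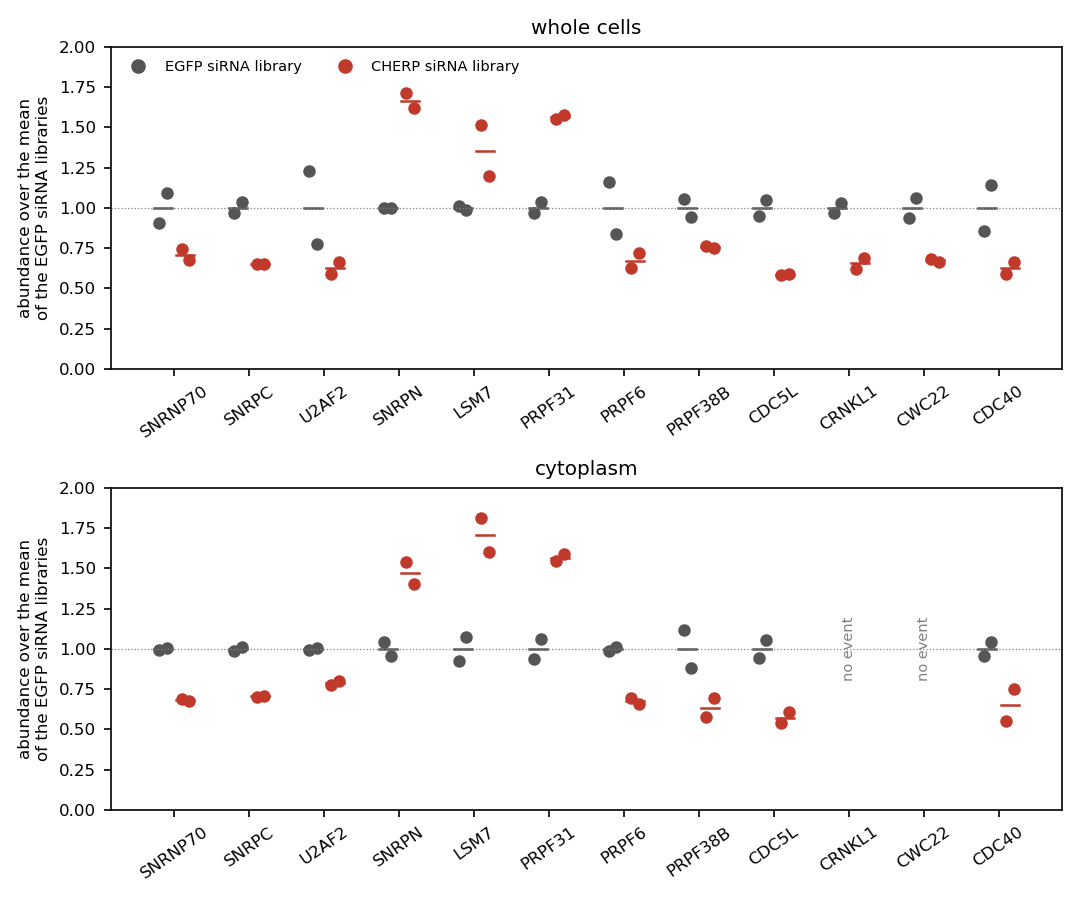
Abundance of 12 spliceosome genes in each library, divided by the mean of the EGFP siRNA libraries of the fraction. They are the genes past the test with the largest log2 differences, up to 6 in each direction and fraction. SNRPN, LSM7 and PRPF31 lie above 1 with the CHERP siRNA, and the other 9 lie below 1 wherever they had an event.

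The deposited expression table of the cytoplasm lists 6757 genes, those past the authors' posterior probability threshold, and gives the authors' mean of normalized counts for each of 2 conditions, without naming which siRNA is the first. It holds 25 of the 44 genes, among them SF3B4, LSM5, CRNKL1 and CWC22, which had no cytoplasmic event. For CHERP, the authors' means were 209 and 1685 in the first and second condition. For CWC22 they were 337 and 583, for CRNKL1 521 and 723, for LSM5 693 and 958, and for SF3B4 4297 and 5196. The first mean was thus the lower one for these genes, as for CHERP. In 14 of the 25 genes the first mean was lower and in 11 higher. Over all 6757 genes listed, it was lower in 2823 and higher in 3934. Of the 21 that also had an abundance from the splicing tables, 19 had the same sign in the first over the second mean as in CHERP siRNA minus EGFP siRNA, and PRPF8 and LSM4 did not. Over all genes present in both, the sign was the same in 96.8% of 4197. Since the same libraries gave both, and the table lists selected genes, these counts are a description. The genes listed are not those called by abundance above. PRPF3, PRPF4, PRPF8, PRPF19, SNRNP40, EFTUD2, TXNL4A, SNRPD2 and LSM4 are listed with the first mean higher (log2 0.16 to 0.36), and SLU7 with it lower. None of these passed by cytoplasmic abundance. SNRPN, LSM2, LSM6, BCAS2 and CDC40 passed there and are not listed.

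Lists of other genes were measured beside these. Of 58 other spliceosome genes, 53 were tested in whole cells, with 13 lower, 9 higher and a median of -0.07. In the cytoplasm, 46 were tested, with 11 lower, 11 higher and a median of -0.18. The genes of SF3b, the part of U2 snRNP at the branch point, did not share a direction. SF3B14 was higher in both fractions, with the largest differences of the list (log2 2.35 in whole cells and 2.37 in the cytoplasm). SF3B2 (-0.41 and -0.52) and SF3B3 (-0.42 and -0.38) were lower in both. SF3B1 was lower in the cytoplasm (-0.60) and at -0.11 in whole cells, which did not pass, and PHF5A did not pass in either (0.09 and -0.37). Of 12 minor spliceosome genes, 1 of 9 tested was lower in whole cells and 2 of 6 in the cytoplasm, ZCRB1 in both (log2 -1.44 and -1.43). Of 18 genes of snRNP assembly, 3 were lower and 1 higher of 17 tested in whole cells, and 2 were higher and 12 did not pass of 14 in the cytoplasm. Both fractions had STRAP, of the SMN complex machinery, among the higher ones (log2 0.56 and 0.69).

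All 16 cell cycle genes tested in whole cells were lower, with log2 values from -2.14 for RRM2 to -0.59 for CDK1 and a median of -1.43. All 14 tested in the cytoplasm were lower too, again with a median of -1.43. In these bulk samples, fewer cells of a cell cycle stage and less RNA per cell cannot be told apart. The part of this shift in the values of the spliceosome genes was not tested. Of 10 housekeeping genes, 2 were lower and 1 higher in whole cells, and 3 of 9 lower and 2 higher in the cytoplasm, with HPRT1 lower (log2 -0.88 and -0.96) and GAPDH higher (0.33 in both).

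**Figure D5:**
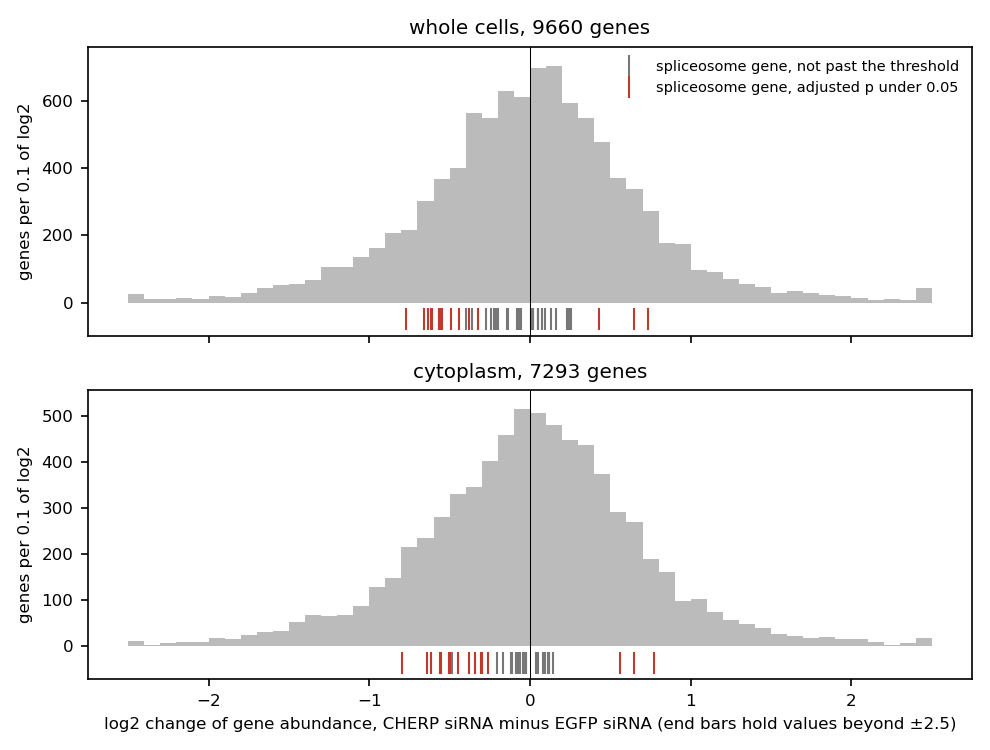
Distribution of the log2 difference in gene abundance (CHERP siRNA minus EGFP siRNA) over the 9660 whole-cell and 7293 cytoplasmic genes tested, in bins of 0.1, with the spliceosome genes as marks below. The marks of the spliceosome genes span -0.77 to 0.74 in whole cells and -0.80 to 0.77 in the cytoplasm, inside the range of all genes.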

How the data were processed

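The authors mapped stranded poly(A) libraries to hg19 with STAR (version 2.5.2b) and ran rMATS, whose version is not given in the sources used here. The deposited rMATS tables hold reads on each form, 2 libraries to a cell in a fixed order without a replicate number, which were taken as first and second library. The other 20 columns of levels per library were not used, nor the authors' p-values, FDR and fold changes. The authors also ran RSEM (version 1.2.25) with GENCODE 19 and EBSeq, and deposited the authors' mean of normalized counts per condition.

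SAMPLE_1 was read as EGFP and SAMPLE_2 as CHERP siRNA, in the order of the tables' name. On the minus strand, the inclusion form of an MXE event was taken to carry the exon listed second, as rMATS defines it. A quasi-binomial model was fitted to every event that both groups had reads on. Its dispersion was moderated within event type and fraction (squeezeVar of limma 3.58.1, R 4.3.3, trend on reads, floor of 1), and the prior degrees of freedom were infinite in all 10 tables, so that an event's own spread had no weight. p-values were adjusted by Benjamini-Hochberg within the type, with a threshold of 0.05. Gene abundance was scaled by median ratios. Genes averaging 20 or more reads entered a limma fit of log2(value + 0.01), with adjustment over all of them. With 2 against 2 libraries, an exact permutation test of a single value cannot give a p under 0.333, and none was run. Tests were run on simulated data first. Exons were matched to GENCODE 44 lifted to GRCh37.

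The genes and lists were chosen with earlier results of these data known. Values per library are given for genes past the test with the 6 largest changes in each direction and fraction, and for all events past the test. Alternatives covered read minimums, priors, tests, adjustment, pseudocounts, scaling, events summed and each library left out. Leaving called events out of the abundance was added after seeing the data.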

Additional observations from a re-analysis of the deposited data

How the results depend on the processing

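No paired analysis was possible because the libraries in a cell of the tables carry no replicate number. Over all genes, 999 whole-cell and 180 cytoplasmic splicing events passed. Without a trend in the dispersion prior 1949 and 482 did, and with limma on the log2 odds 0 and 0. With a difference of at least 0.1 required, 583 whole-cell events passed. For the spliceosome genes, the whole-cell number past the test was 6, and it became 16 without the trend and 3 with that difference. It was 0 with limma (32 at an unadjusted p under 0.05). It ranged from 1 to 7 with one library left out. The cytoplasmic number was 3, and it became 7 without the trend and 0 with limma (12 at an unadjusted p under 0.05), and ranged from 0 to 2 with one library left out. Without a trend in the variance prior, 2579 in place of 3546 of all genes tested passed by abundance in whole cells. Of the spliceosome genes, 8 in place of 16 passed there and 10 in place of 16 in the cytoplasm. With one library left out, 5 to 22 passed in whole cells and 12 to 16 in the cytoplasm. The interaction test called 0 to 1 events with one library left out. The CHERP abundance passed under each alternative that gave a value. Values that did not pass changed sign for LSM2 in whole cells (0.01), at -0.0437 when scaled by the total, at -0.0052 with all 5 event types and between -0.19 and 0.20 with one library left out, and for the SNRNP70 exon in the cytoplasm, at 0.000700 without the first EGFP siRNA library (range with one library left out -0.0015 to 0.0007). The cause of these changes was not tested. Other read minimums, pseudocounts, a robust prior, adjustment over all types and SE events alone kept each count within 1.5 times. With 2 libraries a group, the spread of one event or gene is poorly known, and 21 of 397 whole-cell and 12 of 199 cytoplasmic events had a mean of under 10 reads.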
